A study of Mus musculus with 6 samples.

Results

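The ErbB family comprises 4 receptor tyrosine kinases (*Egfr*, *Erbb2*, *Erbb3* and *Erbb4*), described here together with 6 of the EGF-family ligands that bind them (*Areg*, *Ereg*, *Btc*, *Hbegf*, *Tgfa* and *Nrg1*). The 10 genes were chosen by name, and all 10 were found among the 47643 genes of the count files, of which 21717 had a count in any tumor. The samples were CD45-EPCAM+ cells sorted from tumors of 6 MMTV-PyMT mice on the FVB/N background, 1 tumor per library, and are called tumor 1 to tumor 6. In this model the MMTV promoter drives the polyoma middle T antigen in the mammary epithelium. Every mouse was treated with the anti-VEGF-A antibody B20-4.1.1 (5 mg/kg, 2 injections per week) for 6 weeks, starting at 7 weeks of age. No control group was analysed here, and the low-hypoxia or high-hypoxia class of each tumor is not given by the sample labels, so the classes were not compared.

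ErbB receptors sit in the cell membrane and pair with each other when a ligand binds, after which their kinase domains phosphorylate each other and start signaling through RAS, MAPK and PI3K. The ligands are made as membrane-anchored precursors, and proteases of the ADAM family cut them free. EGFR binds the EGF-type ligands, ERBB2 has no known ligand of its own and acts as a partner, ERBB3 has a weak kinase and binds neuregulins, and ERBB4 binds neuregulins and some EGF-type ligands. In the mammary gland this family is known for its part in duct growth (AREG with EGFR) and in lobule differentiation (ERBB4), and *Erbb2* is a well known oncogene of breast tumors.

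What makes a gene a member of the ligand family is the EGF-like domain, a receptor-binding loop held by 6 cysteines. The coding stretches of that domain are shown for 5 ligands on the coding strand, 5′ to 3′, from GENCODE M21 transcripts of the GRCm38 reference, with the 6 cysteine codons in capitals. They show what the counted transcripts encode, and the mice were of another strain than this reference.

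Areg: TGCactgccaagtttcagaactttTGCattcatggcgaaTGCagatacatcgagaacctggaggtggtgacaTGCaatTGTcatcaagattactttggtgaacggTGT

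Ereg: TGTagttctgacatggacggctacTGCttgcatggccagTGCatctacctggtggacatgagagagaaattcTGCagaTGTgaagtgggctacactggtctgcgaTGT

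Btc: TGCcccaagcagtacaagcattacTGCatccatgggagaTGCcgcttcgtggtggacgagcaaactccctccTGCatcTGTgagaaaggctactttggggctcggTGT

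Tgfa: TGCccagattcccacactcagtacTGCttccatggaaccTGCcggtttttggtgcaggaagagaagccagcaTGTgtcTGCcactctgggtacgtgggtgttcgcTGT

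Nrg1: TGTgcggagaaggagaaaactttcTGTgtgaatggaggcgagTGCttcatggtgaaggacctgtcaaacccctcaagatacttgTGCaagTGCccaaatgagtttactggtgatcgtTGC

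The first 4 of these stretches each had 108 bases and the same numbers of residues between neighbouring cysteines, 7, 4, 10, 1 and 8. The same spacing was found in *Hbegf*, whose sequence is not shown. *Nrg1* differed, with 120 bases and 7, 5, 13, 1 and 8 residues between its cysteines. In the EGF-type ligands the stretch crossed from exon 3 into exon 4 (on GRCm38, chr5:91143614-91144364 for *Areg*, chr5:91088496-91089111 for *Ereg*, chr5:91362421-91366197 for *Btc* and chr6:86263200-86269960 for *Tgfa*, intron included), and in *Nrg1* from exon 2 into exon 3 (chr8:31837698-31849398). *Ereg*, *Areg* and *Btc* lie together with *Epgn*, another EGFR ligand, in 376 kb of chromosome 5 (chr5:91027464-91402994). The files name genes by Ensembl ID: ENSMUSG00000020122 (*Egfr*), ENSMUSG00000062312 (*Erbb2*), ENSMUSG00000018166 (*Erbb3*), ENSMUSG00000062209 (*Erbb4*), ENSMUSG00000029378 (*Areg*), ENSMUSG00000029377 (*Ereg*), ENSMUSG00000082361 (*Btc*), ENSMUSG00000024486 (*Hbegf*), ENSMUSG00000029999 (*Tgfa*) and ENSMUSG00000062991 (*Nrg1*). Of the receptors, *Egfr* (chr11:16752203-16918158) and *Erbb2* (chr11:98412470-98437716) lie on chromosome 11, *Erbb3* on chromosome 10 (chr10:128567523-128589652) and *Erbb4* on chromosome 1 (chr1:68032186-69108059).

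The libraries were made with a 3′ method, in which reads start near the polyadenylated end of a transcript. Total counts on genes lay between 2509482 and 5893246 per tumor. Levels are given as CPM, in which counts are scaled to the same total on genes in every library, and 3 counts, taken as the floor of detection, correspond to between 0.509 and 1.20 CPM. Replicates are 6 tumors of 1 group, and nothing in the labels says which were processed together. The mouse identifiers have 2 prefixes, 1 shared by tumors 2 and 3 and the other by the other 4 tumors. What the prefixes stand for is not given. The library of tumor 1 stood apart: over 8873 genes its median correlation with the other libraries was 0.788, against 0.905 to 0.939 for the others, so values without it are given beside the results that it moved most. The labelled cell type was checked on marker genes. Of 7 luminal markers all were above the floor in every tumor (summed level 3957 to 4874 CPM, with *Epcam* at 611 to 972 CPM), endothelial markers summed to at most 3.88 CPM (with *Cldn5* and *Emcn* at 0 in every tumor), 4 adipocyte markers to at most 0.727 CPM and 6 fibroblast markers to between 15.1 and 25.9 CPM. Tumor 3 carried more RNA of blood cells than the others, with hemoglobin and other erythroid genes at 864 CPM against 5.66 to 69.4 CPM, and the macrophage gene *Lyz2* at 148 CPM against 3.19 to 24.6 CPM.

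*Egfr*, *Erbb2* and *Erbb3* had like medians in CPM in these cells, though their balance differed between tumors, and *Erbb4* was near the floor. *Egfr*, the receptor of most EGF-type ligands, had 26.6, 23.9, 34.2, 40.8, 58.5 and 43.7 CPM in tumors 1 to 6. Tumor 5 was highest and tumors 1 and 2 were lowest, with 2.45-fold between the extremes. *Erbb2*, the partner receptor, had 34.1, 41.4, 40.3, 31.5, 41.3 and 41.6 CPM in the same order. It was the most even of the receptors, with 4 tumors within 40.3 to 41.6 CPM and tumors 1 and 4 somewhat lower. *Erbb3*, the neuregulin receptor, had 8.82, 40.6, 70.8, 23.0, 41.3 and 34.8 CPM, so that tumor 1 was lowest and tumor 3 highest. *Erbb4* had 0, 3, 11, 8, 5 and 8 counts (0 to 2.67 CPM). It was at or below the floor of 3 counts in tumors 1 and 2 and low in the other 4.

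Among the ligands, *Hbegf*, the heparin-binding ligand of EGFR and ERBB4, was the main transcript in every tumor. It had 71.1, 151, 39.8, 97.4, 114 and 92.9 CPM, with tumor 2 highest and tumor 3 lowest, and made up 65.3 to 91.5% of the counts of the 6 ligands. *Btc*, a ligand of EGFR and ERBB4, had 2.88, 20.3, 4.61, 18.5, 18.4 and 18.7 CPM. Its values fell into 2 tumors below 5 CPM (tumors 1 and 3) and 4 tumors between 18.4 and 20.3 CPM. *Tgfa*, an EGFR ligand, had 1.70, 10.8, 7.76, 9.78, 12.2 and 6.83 CPM, lowest in tumor 1.

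*Areg*, the EGFR ligand of duct growth, had 5, 15, 9, 51, 36 and 11 counts, which is 0.848, 5.98, 2.18, 10.8, 7.19 and 2.15 CPM. Tumors 4 and 5 were highest, and tumor 1 was near the floor. *Nrg1*, the neuregulin that binds ERBB3 and ERBB4, had 1.19, 1.99, 6.55, 3.83, 5.99 and 1.56 CPM, highest in tumors 3 and 5. *Ereg* was not detected in 5 tumors and had 3 counts in tumor 5 (0.599 CPM), the floor itself. A count of 0 allows up to 1.20 CPM in the shallowest library, so *Ereg* was not detectable at this depth in those tumors.

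**Figure D1:**
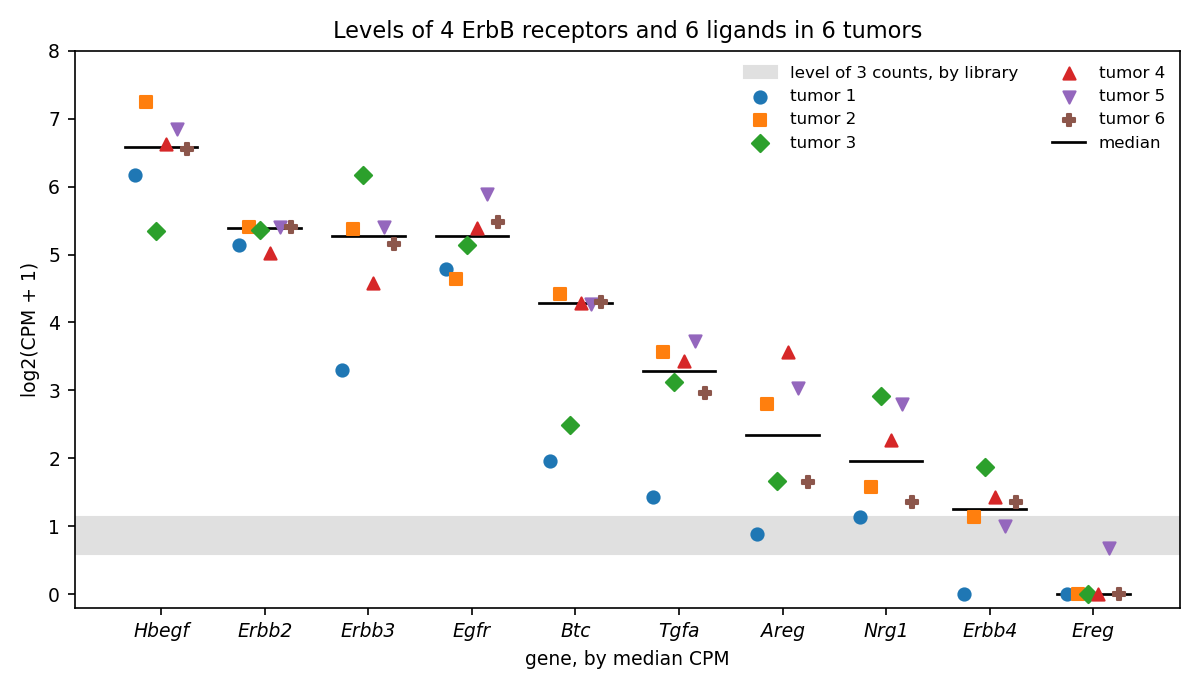
Level of each gene as log2(CPM + 1), ordered by median CPM, with a point per tumor, a bar at the median of the 6 tumors and a gray band for the level of 3 counts in the libraries. Points of *Erbb2* lie close together (31.5 to 41.6 CPM), those of *Erbb3* spread from 8.82 to 70.8 CPM, and *Erbb4* and *Ereg* reach the band.

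Ordered by median CPM, the genes ran *Hbegf* (95.2), *Erbb2* (40.8), *Erbb3* (37.7), *Egfr* (37.5), *Btc* (18.4), *Tgfa* (8.77), *Areg* (4.08), *Nrg1* (2.91), *Erbb4* (1.38) and *Ereg* (0). Among the 21717 genes with a count, 91.1% had a lower median than *Hbegf*, 79.2 to 80.4% a lower median than *Egfr*, *Erbb2* or *Erbb3*, and 42.1% a lower median than *Erbb4*. Neighbours in this order were compared by the difference of log2(CPM + 1) within each tumor (exact sign-flip permutation test, two-sided, smallest possible p = 0.0312, Benjamini-Hochberg adjustment over 9 pairs). *Egfr* exceeded *Btc* in 6 of 6 tumors by 1.60 ± 0.99 on the log2 scale (SD, n = 6, exact p = 0.0312, adjusted p = 0.113). *Hbegf* exceeded *Erbb2* in 5 of 6 tumors by 1.17 ± 0.65 (SD, n = 6, exact p = 0.0625, adjusted p = 0.113), the exception being tumor 3 with 39.8 against 40.3 CPM. At this smallest p, no pair can pass an adjusted p of 0.05 unless 6 of the 9 pairs reach it, so the adjusted values say little here. The pairs were also picked by the order of medians in these same 6 tumors, so the p-values are no independent test of that order. The differences of *Erbb2* from *Erbb3* (0.29 ± 0.87, SD, n = 6) and of *Erbb3* from *Egfr* (-0.22 ± 0.95, SD, n = 6) lay within their spread (exact p = 0.562 for each), and *Egfr* was not tested against *Erbb2*. The median of *Areg* depended on the tumors taken, at 2.18 CPM without tumor 2, 4 or 5 and 5.98 CPM without tumor 1, 3 or 6. Since 3′ reads are counted about once per transcript, CPM is not divided by length. Divided by union exon length (TPM), the order was *Hbegf* (50.2), *Erbb2* (19.6), *Erbb3* (15.7), *Btc* (10.2), *Areg* (8.75), *Egfr* (8.56), *Tgfa* (3.50), *Nrg1* (0.740), *Erbb4* (0.283) and *Ereg* (0), so that *Areg*, a short transcript, and *Btc* moved above *Egfr*, a long one.

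The balance of receptors and ligands differed among the tumors. The 4 receptors summed to 69.6, 107, 148, 97.0, 142 and 122 CPM (median 114) and the 6 ligands to 77.7, 190.1, 60.9, 140.4, 159 and 122 CPM (median 131). Tumor 1 was low in both sums, whereas tumor 3 had the highest receptor sum and the lowest ligand sum. The ratio of ligand to receptor counts was therefore 0.411 in tumor 3, 1.77 in tumor 2 and between 1.00 and 1.45 in the other 4. Among the receptors, *Erbb2* took 49.0% of the counts in tumor 1 and 27.2% in tumor 3, and *Erbb3* 12.7% and 47.9%. The ratio of *Erbb3* to *Erbb2* counts ran from 0.259 in tumor 1 to 1.76 in tumor 3, and the ratio of *Egfr* to *Erbb2* from 0.577 in tumor 2 to 1.42 in tumor 5. In tumor 3, *Nrg1* took 10.8% of the ligand counts against 1.05 to 3.77% elsewhere. Tumor 3 is also the tumor with the high erythroid and macrophage levels given above, and their part in its receptor and ligand balance was not tested.

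**Figure D2:**
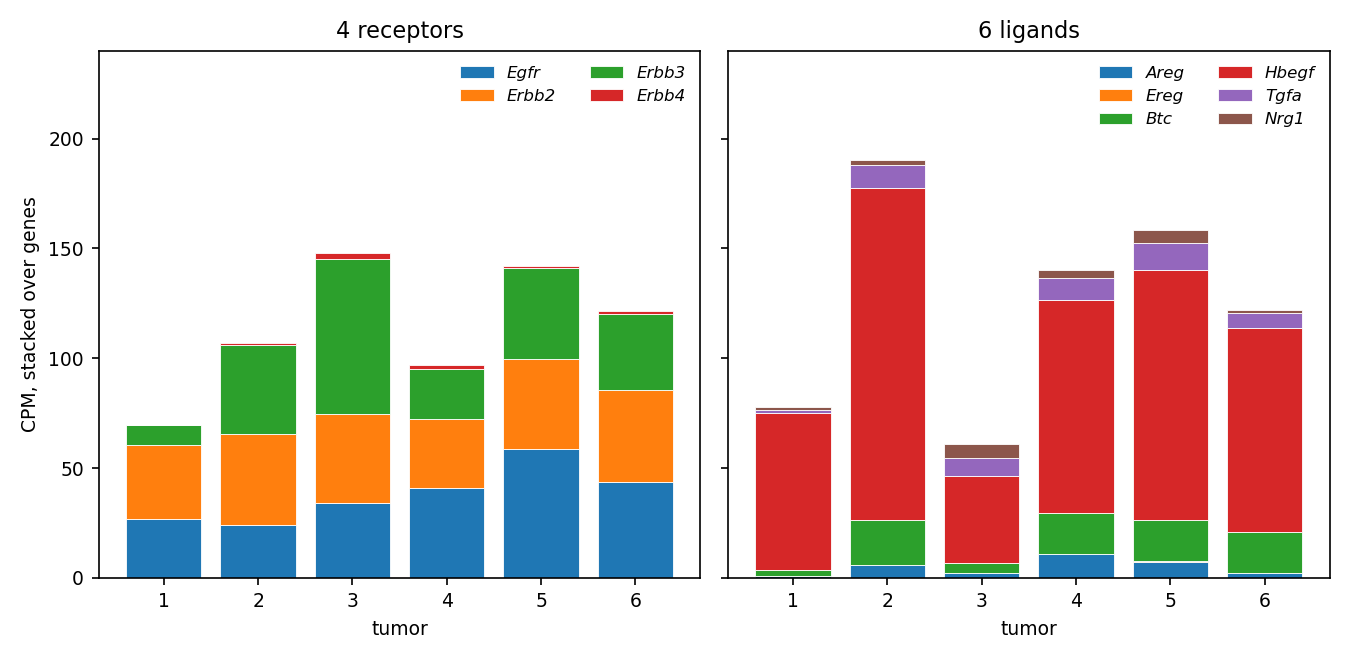
Stacked CPM of the 4 receptors and of the 6 ligands in each tumor, drawn on the same vertical axis from 0. *Hbegf* forms most of every ligand bar (65.3 to 91.5% of the counts), and tumor 3 has the tallest receptor bar (148 CPM) beside the shortest ligand bar (60.9 CPM).

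Read counts vary between libraries by counting alone, and the spread of each gene over the 6 tumors was compared with that noise (chi-square test of equal share in all libraries, 5 degrees of freedom, adjusted over 12165 genes with an expected count of at least 5). The index of dispersion is the test statistic over its degrees of freedom and is near 1 for counting noise. All 8 genes that could be tested passed, as did 90.6% of all genes tested, so that passing is no property of the family. Their index differed more: 59.9 for *Erbb3*, 55.7 for *Hbegf*, 22.4 for *Btc*, 18.5 for *Egfr*, 15.5 for *Areg*, 9.35 for *Tgfa*, 7.27 for *Nrg1* and 2.43 for *Erbb2*, beside a median of 11.9 over all genes tested. *Erbb2* (adjusted p = 0.0367 by chi-square test) had a lower index than all but 10.4% of genes, and its call was lost without tumor 1 (adjusted p = 0.0784) or without tumor 4 (adjusted p = 0.239). With library sizes times TMM factors, its index was higher, 3.95 (adjusted p = 0.00176 by chi-square test), and still the lowest of the 8. The call of *Tgfa* was lost without tumor 1 (index 2.37, adjusted p = 0.0636). *Erbb3* and *Hbegf* had a higher index than 85.2 and 84.2% of genes. The index grows with depth and level, so the biological coefficient of variation from edgeR was set beside that of genes of like level. It was 0.498 for *Erbb3* against a trend of 0.349, 0.590 for *Btc* against 0.403 and 0.667 for *Areg* against 0.481, higher relative to the trend than for 94.6, 95.4 and 93.5% of genes. These 3 genes were lowest in tumor 1, and the coefficient was not computed without that tumor. For *Hbegf*, *Tgfa* and *Nrg1* it was higher relative to the trend than for 82.5, 82.0 and 80.5% of genes. For *Egfr* and *Erbb2* it was 0.337 and 0.265, each against 0.348, where 62.1 and 11.4% of genes were lower. *Erbb4* and *Ereg* had too few counts for the chi-square test.

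**Figure D3:**
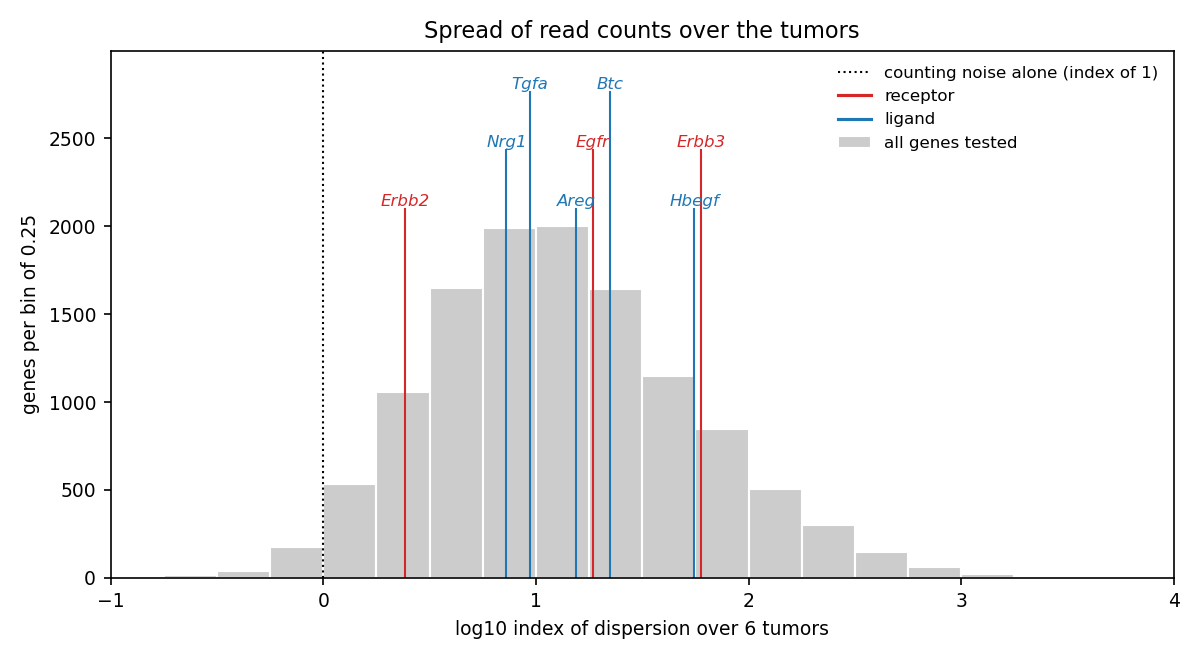
Index of dispersion over the 6 tumors for all 12165 genes tested (gray bars, log10 axis) with lines at the 8 testable genes of the family and a dotted line at counting noise alone. *Erbb2* (2.43) lies in the low tail, whereas *Erbb3* (59.9) and *Hbegf* (55.7) lie above most genes.

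Part of this spread came with tumor 1, which held the lowest level of 5 of the 8 genes that passed the expression filter (*Erbb3*, *Areg*, *Btc*, *Tgfa* and *Nrg1*) and the highest of none, while 28.8% of all 12088 genes passing that filter were lowest there and 34.2% were highest there. Against the median of the other 5 tumors, on log2 of TMM-scaled CPM + 1, tumor 1 was at -2.11 for *Erbb3*, -2.33 for *Btc*, -2.00 for *Tgfa* and -1.98 for *Areg*. It was closer for *Egfr* (-0.61), *Hbegf* (-0.56) and *Erbb2* (-0.28), with a median of 0.03 over all genes. Without tumor 1 the index of dispersion was 32.6 for *Erbb3* and 10.5 for *Btc*, while that of *Hbegf* was 58.6. The genes whose levels moved most like those of *Erbb3* over the 6 tumors (correlation of log2 values over 8854 genes, no test) were *Osmr*, an oncostatin M receptor, *Pabpn1*, a poly(A)-binding protein, and *Elf3*, an epithelial transcription factor (r = 0.989 for each). In all, 43 genes exceeded r = 0.95 with *Erbb3*, 3 with *Hbegf* (*Dip2c* 0.983, *Trp53bp2* 0.964 and *Msto1* 0.954) and 0 with *Erbb2*, whose nearest were *Ptgr1* (0.941), *Fbxo33* (0.917) and *Mrgbp* (0.915). Over 6 tumors these correlations only describe the pattern.

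*Erbb2* lies in a gene-dense stretch of chromosome 11 that is often amplified together with it in human breast tumors, and several neighbours differed from *Erbb2* in tumor 1. *Mien1*, whose end overlaps the last bases of *Erbb2* on the opposite strand (chr11:98437708-98437716), had 396 CPM in tumor 1 against 115 to 159 CPM in the others. *Grb7*, an adaptor that binds ERBB2, had 123 against 38.7 to 62.8 CPM, and *Pgap3* 47.0 against 17.9 to 24.8 CPM, whereas *Stard3* was highest in tumor 5 (53.3 CPM) and *Erbb2* itself had 34.1 against 31.5 to 41.6 CPM. The 9 neighbours summed to 621 CPM in tumor 1, most of it *Mien1* (396 CPM), and to between 202 and 275 CPM elsewhere. Of all 12088 genes passing the expression filter, 34.2% were highest in tumor 1. Copy number of this stretch was not tested. Whether counting used the strand is not given in the sources used here. In the last 300 bases of *Erbb2* none of 251 windows of 50 bases was shared with another gene's transcripts. The windows were compared in the sense direction only, so they cannot show whether reads of *Mien1* were counted for *Erbb2*.

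The hypoxia score of the study's methods, the mean TPM of *Vegfa*, *Slc2a1* and *Car9*, orders the tumors without a class label. It was 48.5, 37.2, 51.4, 76.6, 94.4 and 47.3 in tumors 1 to 6. A slope of each gene on log2 of the score was fitted over all 6 tumors with edgeR's quasi-likelihood test on 12088 genes. No gene passed an adjusted p of 0.05 (0%), and 512 (4.24%) had an unadjusted p under 0.05, while DESeq2 called 15 genes (13 up and 2 down), none of them among the 10.

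None of the 8 genes tested was called against the score by edgeR. Nor were the 3 genes of the score itself, with slopes of 1.29 for *Vegfa*, 0.68 for *Slc2a1* and 1.51 for *Car9* (adjusted p = 0.755 to 0.954 in edgeR). On simulated counts the same fit recovered 54.3% of 200 genes given a slope of 2 in either direction. That slope is larger than any fitted for the 8 genes over all 6 tumors. The simulated spread followed the trend of genes of like level, which *Erbb3*, *Hbegf*, *Btc*, *Areg*, *Tgfa* and *Nrg1* exceeded. The lack of a call therefore does not show that a gene is unrelated to the score. The log2 change per doubling of the score was 0.70 ± 0.35 (SE) for *Egfr* (adjusted p = 0.954 in edgeR). It was -0.15 ± 0.30 for *Erbb2* and -0.15 ± 0.65 for *Erbb3*. Among ligands it was 1.14 ± 0.78 for *Areg*, 1.10 ± 0.71 for *Nrg1*, 0.43 ± 0.62 for *Tgfa*, 0.20 ± 0.71 for *Btc* and -0.12 ± 0.46 for *Hbegf*. The adjusted p of these 8 genes in edgeR lay between 0.954 and 0.981. The levels put this in concrete terms: the tumors with the highest scores, 5 and 4, had the highest and the third highest *Egfr* level (58.5 and 40.8 CPM) and the highest *Areg* levels (7.19 and 10.8 CPM), but *Hbegf* in them (114 and 97.4 CPM) lay within the range of the others. Over the alternative fits, which include each tumor left out, the slope of *Egfr* lay between 0.52 and 0.91. That of *Areg* was 2.74 without tumor 2 and 0.67 without tumor 4, and that of *Tgfa* was 1.23 without tumor 2, 0.23 without tumor 1 and 0.05 without tumor 5. With the identifier prefix as a term the slopes were 1.93 for *Areg*, 1.08 for *Tgfa* and 2.20 for *Nrg1*. *Nrg1* did not pass the expression filter without tumor 3, 4 or 5, so its slope (0.85 to 1.12 without tumor 1, 2 or 6) is not known without the tumors of its highest levels. The signs for *Erbb3*, *Btc* and *Hbegf* changed in some of these fits. The median slope over all genes was -0.04, that of the 3 tested receptors -0.15 and that of the 5 tested ligands 0.43. Although 4 of the 5 ligand slopes were positive, none was called, and the share of positive slopes over all genes is not given here.

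**Figure D4:**
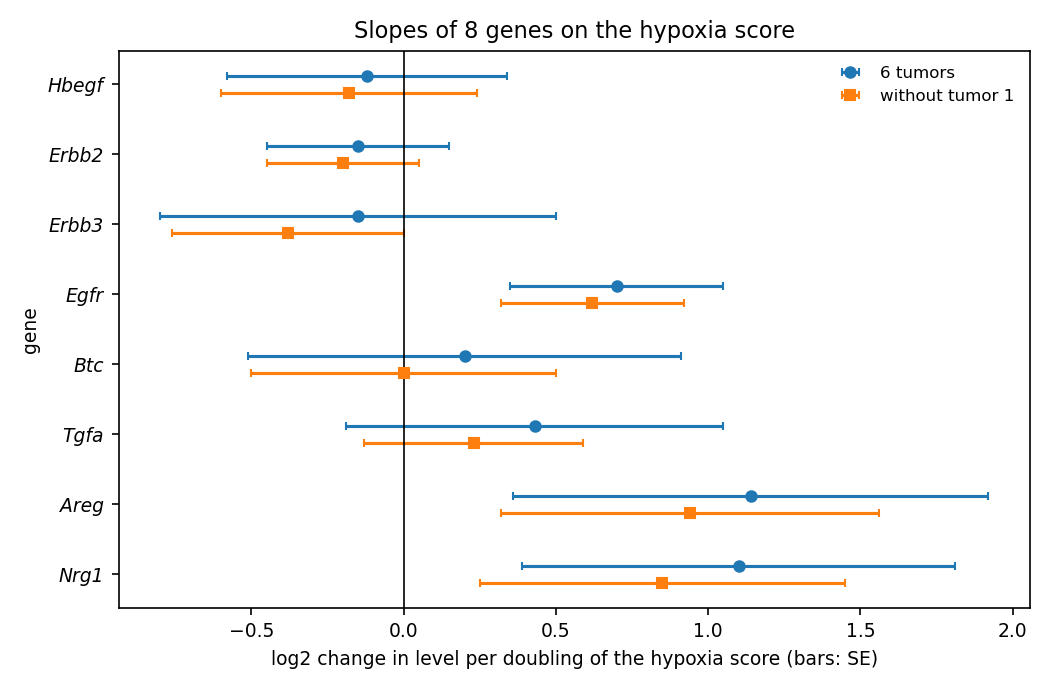
Slope of the 8 testable genes on log2 of the hypoxia score from edgeR, in log2 change per doubling of the score with its SE, for all 6 tumors (circles) and without tumor 1 (squares). *Egfr* (0.70), *Areg* (1.14) and *Nrg1* (1.10) have the highest values, and no slope passed an adjusted p of 0.05.

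Other ligands of the family were read from a list. *Epgn*, epigen, had 24.8 CPM in tumor 5, the tumor with the highest score, against 0.797 to 5.32 CPM in the others. Its slope was 3.01 ± 0.51 (SE, adjusted p = 0.445 in edgeR), and DESeq2 called it (slope 3.04, adjusted p = 0.0112). *Nrg2*, a neuregulin, had 11.9 to 27.1 CPM and so a higher level than *Nrg1* in every tumor. *Egf* had 1.40 to 6.30 CPM, *Nrg4* 0.195 to 1.28 CPM, and *Nrg3* no count in any tumor. Of the 3 that could be tested in edgeR, 0 were called.

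Genes that cut the ligands free were all expressed. *Adam17*, the main protease of *Areg*, *Hbegf* and *Tgfa* precursors, had 108 to 180.0 CPM, *Adam10*, which cuts *Btc* and *Egf*, 29.9 to 87.2 CPM, *Rhbdf1*, a cofactor of ADAM17, 86.3 to 251 CPM and *Bace1*, which cuts neuregulin precursors, 57.7 to 108 CPM. *Rhbdf1*, *Adam17* and *Bace1* were highest in tumor 1, and *Adam10* was lowest there. None of the 5 genes of this list, and none of the 4 genes of receptor partners and regulators, was called against the score by edgeR. Among the partners, *Erbin*, a scaffold that binds ERBB2, had 69.9 to 195 CPM, and the mucins *Muc4* and *Muc1* 23.6 to 72.1 and 22.2 to 69.1 CPM. *Rnf41*, a ubiquitin ligase of ERBB3, had 7.66 to 26.8 CPM. Its highest level was in tumor 1, as for 34.2% of all genes passing the expression filter.

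Downstream, 13 adaptors and kinases were expressed in every tumor and summed to between 890.3 and 1081 CPM, the narrowest range of the pathway lists. *Mapk3*, the ERK1 kinase, had 198 to 249 CPM, *Grb2*, the adaptor that links receptors to RAS, 108 to 142 CPM, and *Nras* 91.0 to 133 CPM. *Hras* was at 125 CPM in tumor 1 against 21.1 to 26.6 CPM in the others. Of 13 feedback inhibitors, 12 could be tested and 0 were called by edgeR. They had 9 positive slopes and a median of 0.36, beside a median of -0.04 over all genes. *Dusp6*, the ERK phosphatase that ERK signaling induces, had 51.9, 44.6, 137, 173, 341 and 150.1 CPM, highest in the 2 tumors with the highest scores. Its slope was 1.72 ± 0.49 (SE, adjusted p = 0.954 in edgeR). *Errfi1*, an inhibitor of EGFR, had 62.1 to 175 CPM, *Spred1* 63.8 to 108 CPM, *Spry2* 55.4 to 70.3 CPM and *Cbl*, a ubiquitin ligase of EGFR, 3.56 CPM in tumor 1 against 53.7 to 104 CPM. Among 6 genes of MAPK output, 0 were called by edgeR, *Phlda1* was highest in level (1054 to 2053 CPM), and *Ccnd1*, cyclin D1, had 29.7 CPM in tumor 1 against 86.5 to 162 CPM. *Etv5*, an ETS factor, went the other way, with 158 CPM in tumor 1 against 30.3 to 62.1 CPM, and *Etv4* had 2.73 to 12.6 CPM, also highest in tumor 1.

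**Figure D5:**
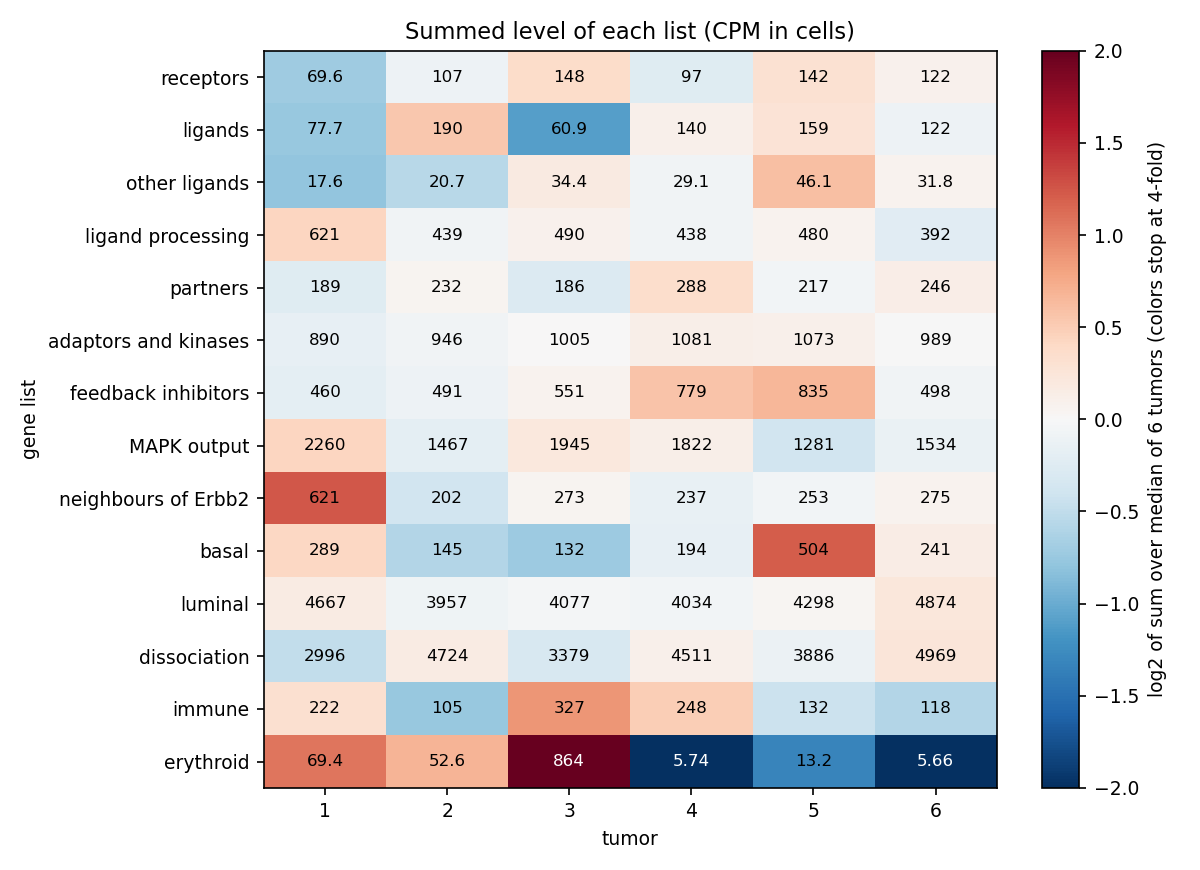
Summed CPM of each gene list in each tumor, with the value printed in the cell and the color giving log2 of the sum over the median of the 6 tumors. Tumor 1 is low in receptors (69.6) and ligands (77.7) and high in neighbours of *Erbb2* (621), and tumor 3 is high in erythroid genes (864).

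Relations between measures were computed for fixed pairs over the 6 tumors, on log2(TMM-scaled CPM + 1) (10 pairs, exact permutation over 720 orders, two-sided, smallest possible p = 0.00139, Benjamini-Hochberg adjusted over the 10). None passed, the lowest adjusted p being 0.472. *Areg* and *Btc*, neighbours on chromosome 5, had r = 0.778 (exact p = 0.0556, adjusted p = 0.472) and rho = 0.543 (exact p = 0.297, adjusted p = 0.599), with r = 0.596 without tumors 1 and 4, the farthest from the median of *Areg*, and r = 0.564 without tumor 1 alone. *Egfr* and *Areg* had r = 0.377 (exact p = 0.443, adjusted p = 0.707) and rho = 0.429 (exact p = 0.419, adjusted p = 0.599), with r = 0.554 without tumors 2 and 5 and r = 0.0709 without tumor 1 alone. *Erbb2* and *Erbb3* had r = 0.620 (exact p = 0.189, adjusted p = 0.472) and rho = 0.429 (exact p = 0.419, adjusted p = 0.599), and r turned to -0.826 without tumors 1 and 4, so that the positive value rested on these 2 tumors. The identifier prefixes hold 4 and 2 tumors, too few for a correlation, so no relation was computed within them. Pairs with *Ereg* were not computed, since it had 0 counts in 5 tumors.

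Early-response genes that rise during tissue dissociation were compared with *Hbegf* and *Areg*, which are themselves early-response genes in many cells. The 10 dissociation genes summed to 2996 CPM in tumor 1 and 3379 CPM in tumor 3, and to between 3886 and 4969 CPM in the others. *Fos*, *Jun*, *Atf3*, *Egr1* and *Dusp1* had their lowest levels in tumors 1 and 3, and *Fosb* and *Junb* in tumor 1. *Zfp36* had 338 CPM in tumor 3 but 492 CPM in tumor 1. *Ier2* went the other way, highest in tumors 3 and 1 (142 and 128 CPM against 75.5 to 119 CPM). *Nr4a1* was highest in tumor 1 (94.0 CPM against 58.2 to 75.9 CPM). *Hbegf* was lowest in tumors 3 and 1 (39.8 and 71.1 CPM). The relation of the 10 summed genes to *Hbegf* had r = 0.711 (exact p = 0.103, adjusted p = 0.472) and rho = 0.657 (exact p = 0.175, adjusted p = 0.599), with r = 0.890 without tumors 1 and 6. For *Areg* r was 0.512 (exact p = 0.282, adjusted p = 0.564) and rho 0.486 (exact p = 0.356, adjusted p = 0.599), with r = 0.753 without tumors 1 and 6. Without tumor 1 alone r was 0.140 for *Areg* and 0.750 for *Hbegf*, and without tumor 6 alone it was 0.872 for *Areg*.

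The sum of the basal markers was highest in tumor 5 (504 CPM against 132 to 289 CPM in the others), where *Egfr* and *Epgn* were also highest. The sum was carried by *Krt14* (359 CPM in tumor 5) and *Krt17* (127 CPM), whereas *Krt5* (17.4 CPM) and *Trp63* (16.0 CPM) were highest in tumor 4, with 10.2 and 4.59 CPM in tumor 5, and *Acta2* and *Myh11* were at or below 1.21 CPM in every tumor. The relation of the summed 7 markers to *Egfr* had r = 0.641 (exact p = 0.163, adjusted p = 0.472) and rho = 0.543 (exact p = 0.297, adjusted p = 0.599), with r = 0.322 without tumors 3 and 5. It was 0.877 without tumor 1 and 0.268 without tumor 5. The part of basal cells in the *Egfr* and *Epgn* levels was not tested. In sorted bulk samples, fewer cells of a type and less RNA per cell cannot be told apart. The 13 immune markers summed to 327 CPM in tumor 3 and to between 105 and 248 CPM in the others, where *S100a8* made up most of the sum in every tumor but tumor 3, and *Cd79a* had no count in any tumor. Their relation to *Areg* had r = -0.277 (exact p = 0.629, adjusted p = 0.707) and rho = -0.257 (exact p = 0.658, adjusted p = 0.731), with r = 0.0484 without tumors 2 and 3.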

How the data were processed

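RNA of sorted CD45-EPCAM+ cells from 6 tumors was sequenced with QuantSeq 3′ FWD libraries. Per the study's methods and the submitters' processing notes, reads were trimmed with bbduk, aligned to GRCm38/mm10 with STAR 2.5 and counted with HTSeq (Bluebee platform). The deposited values are unnormalized counts of reads for each gene. Annotation release, strand setting and collapsing of the 6-base molecular identifiers are not given in the sources used here, so floors cover counting error only. Reads on no gene (16.1 to 41.4%) were left out.

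From the deposited counts, CPM, TMM-scaled CPM and TPM (union exon length of GENCODE M21, which held 47224 of the 47643 gene IDs) were computed. The slope on log2 of the hypoxia score was fitted with edgeR 4.0.16 (filterByExpr, with 10 as count minimum, 15 as total minimum and 3 as group size), with DESeq2 1.42.0 as alternative, and the fit was tested on simulated data. Spread was tested by chi-square against library totals. P-values of the slope, sign-flip and permutation tests measure the spread between these tumors. Those of the chi-square test compare it with counting noise. R 4.3.3, Python 3.11.15, numpy 2.4.6, scipy 1.17.1 and Biopython 1.88 were used.

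Members and gene lists were chosen with earlier results of these data known. Text names the 10 members, up to 4 genes of highest median CPM per list, genes called, and the 3 genes most alike for the 3 members of highest median CPM. A gene that this rule names is not reported here. *Hras* and *Cbl* were chosen after their values were seen. In each member, 0 of 251 windows of 50 bases in the last 300 bases were shared with another gene's transcripts. No counts from other samples were used.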

Additional observations from a re-analysis of the deposited data

Results flagged for a closer look

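The gap between the most extreme tumor and its nearest neighbour, divided by the range of the 6 tumors, was compared with Dixon's 95% critical value for 6 samples in 16 measures, the 10 genes, their 2 sums and 4 other ligands. Chance alone marks about 5% of normally distributed groups, and 3 of the 16 passed. The 16 measures are not independent, since the 2 sums hold the 10 genes, and some rest on few counts. The share of 5% is therefore only a rough guide.

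*Epgn* in tumor 5 had a gap of 0.811 of the range (24.8 CPM against 5.32 CPM in the next tumor, from 124 counts against 25). *Egf* in tumor 3 had a gap of 0.716 (6.30 CPM against 2.79 CPM, from 26 counts against 7). *Ereg* in tumor 5 had a gap of 1.00, since the other 5 tumors had no count and tumor 5 had 3 counts. A gap of that size follows for any gene counted in 1 tumor alone, so it does not count against the share that chance marks.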

How the results depend on the processing

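The median sum of the 4 receptors was 114 CPM, and 146 without the 10 most abundant genes of each library, 44.1 TPM, and 534 in counts over DESeq2 size factors, another scale. The median sum of the 6 ligands was 131 CPM, 77.8 TPM and 599 in counts over DESeq2 size factors. Of 90 alternative medians of single members, 81 moved by less than 1 SD of the tumors. Many of the 90 left out a tumor, and leaving out 1 of 6 tumors cannot move a median by 1 SD. The count of 81 therefore does not show that the medians are stable. The median of *Areg*, 4.08 CPM, was 2.18 to 5.98 CPM with a tumor left out. Against the hypoxia score, where edgeR called 0 genes, DESeq2 called 15, edgeR without a filter on low counts 10, and leaving out a tumor gave 0 to 2. The 2 genes were called without tumor 1 and were *Mir6236* and *n-R5-8s1*, named after their values were seen, both lower at higher scores. Other normalization, a geometric mean score and the identifier prefix as a term gave 0. No member was called in any of these fits. The slope of *Erbb3* was 0.17 with the geometric mean score, 0.69 with the prefix and -0.71 to 0.09 with a tumor left out. That of *Btc* was -0.08 to 0.97 and that of *Hbegf* -0.57 to 0.61 with a tumor left out. The cause was not tested.

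Leaving out a tumor gave r between 0.506 and 0.746 for *Erbb2* and *Erbb3*, -0.00655 and 0.577 for *Egfr* and *Erbb2*, 0.564 and 0.954 for *Areg* and *Btc*, 0.0709 and 0.662 for *Egfr* and *Areg*, 0.268 and 0.877 for basal markers and *Egfr*, -0.811 and 0.443 for basal markers and *Nrg1*, -0.794 and 0.0111 for luminal markers and *Erbb3*, 0.140 and 0.872 for dissociation genes and *Areg*, 0.643 and 0.789 for dissociation genes and *Hbegf*, and -0.694 and -0.0956 for immune markers and *Areg*. Basal markers and *Nrg1* had r = -0.0337, and 0.0239 on CPM. Genes whose spread exceeded counting noise numbered 11027, and 9418 to 11227 with a tumor left out. Depth limits *Erbb4*, *Ereg*, *Nrg1* and *Areg*, which had between 0 and 51 counts per tumor. No paired analysis was possible because there is only 1 group to compare. The differences between genes were taken within each tumor.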

Other observations

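Beyond the family, the genes of lowest p against the hypoxia score in edgeR were *Sox11* (slope 4.26), *Adamts1* (2.75), *Epgn* (3.01), *Col4a1* (3.23) and *Fn1* (4.06), each at an adjusted p of 0.445. All 5 were called by DESeq2, together with *Krt17*, *Vim*, *Ccn2*, *Col4a2*, *Gja1*, *Ccnd2*, *Bmp2* and *Ncam1*, which had positive slopes, and *Lao1* (slope -2.03) and *Scgb2b27* (-2.24), which had negative ones. *Epgn* was the only EGF-family gene among the 15 that DESeq2 called. These genes were named after their values were seen. Tumor 5, with the highest score, had the highest *Epgn* (24.8 CPM against at most 5.32 CPM) and *Krt17* (127 against at most 40.8 CPM). Levels of the other called genes are not given here. In edgeR, 512 genes had an unadjusted p under 0.05 over all tumors and 76 without tumor 5, against 343 to 985 with another tumor left out. DESeq2 was not fitted without tumor 5, so the dependence of its calls on that tumor was not tested.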
